A study of Mus musculus with 9 samples.

Results

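The oligodendrocyte lineage was followed through 34 genes chosen by name, of 54446 genes counted: 7 genes of oligodendrocyte precursors, 6 genes of newly formed oligodendrocytes and 21 genes of myelinating oligodendrocytes. RNA was measured by strand-specific sequencing of polyadenylated RNA in 9 libraries of tissue extracts from the brains of adult male mice aged 3-4 months. The groups were Tfap2a+/- mice, which are heterozygous for a knockout of the transcription factor gene Tfap2a, mice labelled Tfap2b+/-, heterozygous for a knockout of its relative Tfap2b, and wild-type mice, labelled B6N, with 3 libraries each. How the knockout alleles were made and which part of the brain was taken are not given in the sources used here. Nothing in the labels tells whether the 3 libraries of a genotype are 3 animals. The tests therefore rest on the spread between libraries, which could be technical.

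Oligodendrocyte precursors divide throughout adult life and carry the receptor for platelet-derived growth factor and the proteoglycan of the Cspg4 gene on their surface. When they leave the cell cycle they pass through a short premyelinating stage, marked by Gpr17, Bcas1 and Enpp6, and then wrap axons in membrane that is packed with a small number of myelin proteins and glycolipids. White matter tracts hold far more of these mature cells than grey matter does, while precursors are spread more evenly through both.

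Each library held 21946800 to 29214975 counts in genes, so that 3 counts correspond to 0.101 to 0.141 CPM (counts relative to the size of the library, after TMM scaling). Values of a group are given for its libraries 1, 2 and 3 in that order. Tfap2a had 0.445, 0.223 and 0.461 CPM in Tfap2a+/- libraries, 1.59, 0.674 and 0.113 CPM in those labelled Tfap2b+/- and 0.611, 0.264 and 0.734 CPM in wild-type libraries. Tfap2b had 1.88, 2.54 and 3.96 CPM in Tfap2a+/- libraries, 32.9, 8.90 and 5.81 CPM in those labelled Tfap2b+/- and 2.25, 0.715 and 14.8 CPM in wild-type libraries. The libraries labelled Tfap2b+/- thus averaged more than wild type, not less, with overlapping values and the highest value in library 1 of that group. The log2 fold change was 1.42 (SE 0.98, edgeR adjusted p = 0.598). With this spread the RNA level does not tell whether the label is right. Neither gene passed the test. Libraries also differed in RNA of tissue next to the ventricles: the summed level of 10 choroid plexus markers was 22.6 to 910.2 CPM in Tfap2a+/-, 33.6 to 310.0 CPM in those labelled Tfap2b+/- and 56.0 to 3259 CPM in wild-type libraries, with the highest value in wild-type library 2. Of 10 Schwann cell markers, which would mark peripheral myelin, 7 passed the filter on low counts and Pmp2 was listed at 0 in every library. Together the 10 came to 102 to 145 CPM in Tfap2a+/-, 78.1 to 124 CPM in those labelled Tfap2b+/- and 86.2 to 126 CPM in wild-type libraries, most of it from Drp2, which brain makes too and which stood at 58.9 to 124 CPM over the libraries. All 34 lineage genes were above the filter on low counts, and the lowest count of any of them in any library was 60, for Trf. As these are tissue extracts, fewer cells of a type and less RNA per cell cannot be told apart.

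The promoters of these genes were available for 24 of the 34, as windows of 300 bases from RefSeq (GRCm38.p6) that run from 250 bases before to 50 bases after the start of transcription. Motifs were searched on both strands: AACAAAG, a core bound by SOX factors, CTGGNAC, bound by the myelin regulator that Myrf encodes, and GCCNNNGGC, the core of AP-2 sites, AP-2 being the family of Tfap2a and Tfap2b. The MYRF motif was found in 7 of the 16 myelinating genes with a window (43.8%), against 21.4% of all 27025 genes with one. The SOX motif was found in 2 of those 16 genes (12.5%) against 6.68% of all genes, and the AP-2 motif in 2 of them (12.5%) against 18.5%. Over all 24 lineage genes the shares were 33.3% for MYRF, 12.5% for SOX and 16.7% for AP-2. E-boxes (CANNTG), the kind of site that OLIG proteins bind, were in 62.5% of the 24 against 75% of all genes, and TATAAA was in 12.5% against 15.7%. Such matches describe letters in a window and are not shown to be sites. Some myelinating genes, among them Cldn11 and Mal, had no SOX, MYRF or AP-2 match, while the precursor genes Vcan and Sox6 had matches. The 4 windows printed were chosen after the motifs had been counted. They show myelin genes with the most matches beside a precursor gene with none and do not stand for their stages. They are Mobp (chr9:120149492-120149791, plus strand, 4 SOX matches), Cnp (chr11:100574689-100574988, plus strand, 1 SOX and 2 MYRF matches), Mag (chr7:30914814-30915113, minus strand, 2 MYRF matches and 1 AP-2 match that overlaps the second of them) and Pdgfra (chr5:75152001-75152300, plus strand, no match to these 3 motifs). Each is given 5′ to 3′ on the strand of its gene, and capitals mark the matches to the SOX, MYRF and AP-2 motifs on either strand.
Mobp: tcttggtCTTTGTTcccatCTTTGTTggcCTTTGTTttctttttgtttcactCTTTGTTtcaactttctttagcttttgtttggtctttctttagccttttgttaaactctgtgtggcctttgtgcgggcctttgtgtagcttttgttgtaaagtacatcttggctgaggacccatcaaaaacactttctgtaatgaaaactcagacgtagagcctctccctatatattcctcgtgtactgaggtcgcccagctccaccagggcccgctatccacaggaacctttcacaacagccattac
Cnp: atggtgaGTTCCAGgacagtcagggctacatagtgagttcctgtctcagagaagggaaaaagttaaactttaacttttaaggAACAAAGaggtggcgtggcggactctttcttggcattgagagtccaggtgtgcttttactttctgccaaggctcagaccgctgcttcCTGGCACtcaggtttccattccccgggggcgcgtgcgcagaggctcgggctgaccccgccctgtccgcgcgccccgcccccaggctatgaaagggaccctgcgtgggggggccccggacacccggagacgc
Mag: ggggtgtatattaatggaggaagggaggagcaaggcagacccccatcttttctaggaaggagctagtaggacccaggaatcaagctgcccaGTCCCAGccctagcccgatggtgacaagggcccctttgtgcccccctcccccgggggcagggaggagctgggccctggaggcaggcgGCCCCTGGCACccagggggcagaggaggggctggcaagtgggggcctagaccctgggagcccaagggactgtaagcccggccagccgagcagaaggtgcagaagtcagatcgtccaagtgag
Pdgfra: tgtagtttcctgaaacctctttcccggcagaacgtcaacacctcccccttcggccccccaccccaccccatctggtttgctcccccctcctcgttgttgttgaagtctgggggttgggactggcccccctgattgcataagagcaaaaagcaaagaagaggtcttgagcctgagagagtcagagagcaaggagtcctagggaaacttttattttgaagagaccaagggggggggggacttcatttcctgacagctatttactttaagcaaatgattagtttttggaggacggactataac

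In Tfap2a+/- brains every myelinating gene averaged lower than in wild type, by a median log2 fold change of -0.44, while the precursor and newly formed genes had medians of -0.12 and -0.04. In the libraries labelled Tfap2b+/- the 3 stages stood at medians of 0.06, 0.06 and -0.01 against wild type. These medians were not tested, since the test used takes each gene by itself. No lineage gene was called in any of the 3 comparisons by edgeR's quasi-likelihood test at an adjusted p under 0.05, and the share called among all 17355 genes tested was 0% for Tfap2a+/- against wild type, 0% for the libraries labelled Tfap2b+/- against wild type and 0% for Tfap2a+/- against those labelled Tfap2b+/-. At an unadjusted p under 0.05 there were 666, 1841 and 1997 genes in those comparisons, among them 0, 2 and 2 lineage genes. DESeq2 called 30, 175 and 221 genes, again with 0 lineage genes in each. Both comparisons with wild type use the same 3 wild-type libraries, so they are not independent of each other.

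**Figure D1:**
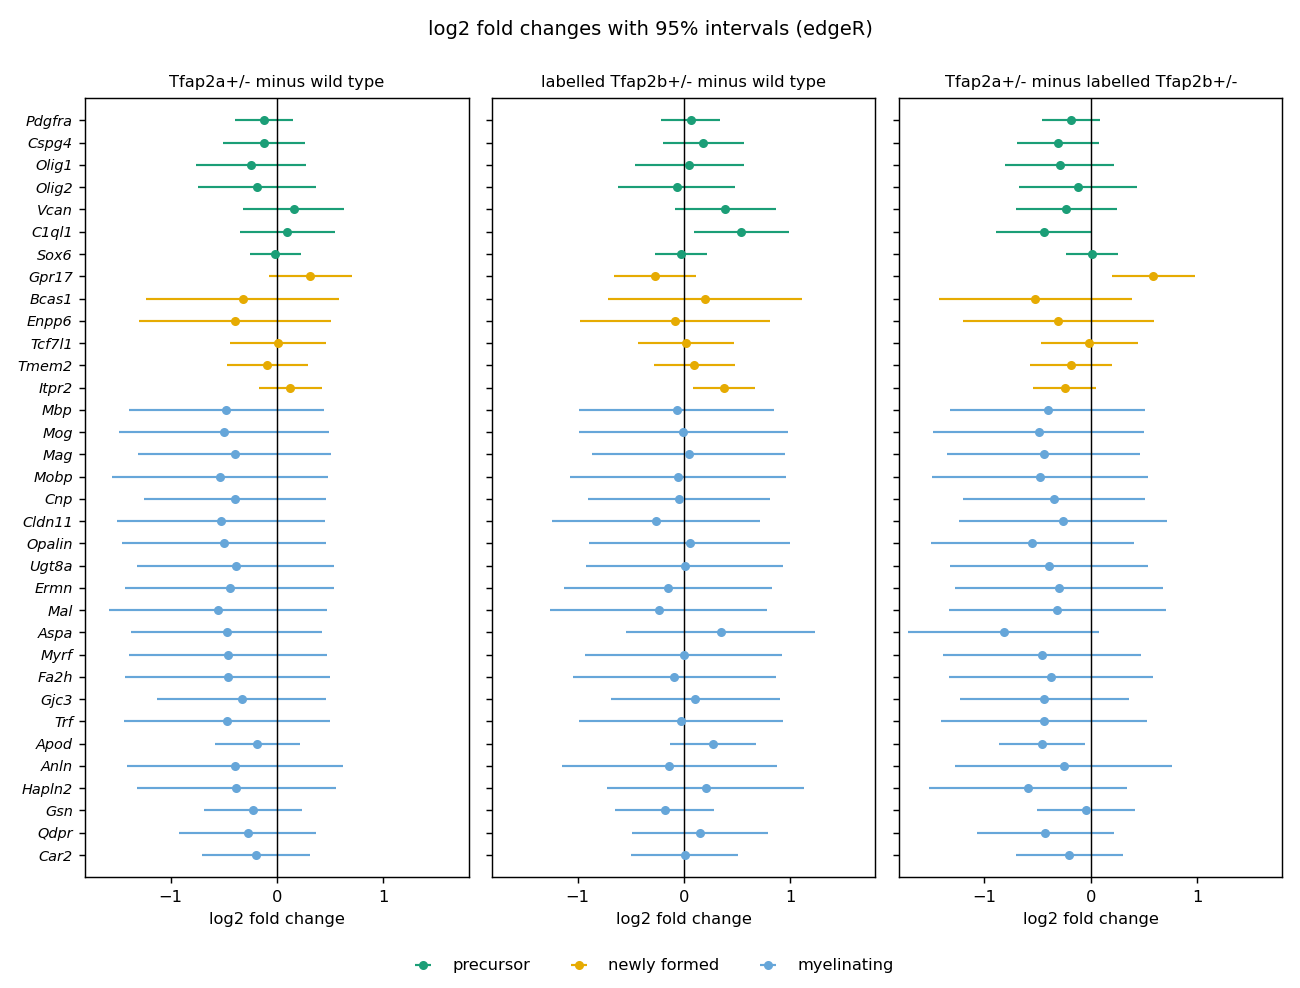
Log2 fold changes (x axis) of the 34 lineage genes (rows, coloured by stage) in the 3 comparisons, as points with 95% confidence intervals from the edgeR fit. All 21 myelinating genes lie left of 0 for Tfap2a+/- minus wild type, between -0.55 and -0.19, with wide intervals that cross 0, and they straddle 0 for the libraries labelled Tfap2b+/- minus wild type.

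The precursor genes of Tfap2a+/- libraries averaged close to wild type, though Tfap2a+/- library 3 was the lowest of all libraries for 5 of them. Of the 7, 2 averaged higher and 5 lower, and for none of them did the groups separate, beside 4.85% of all genes with every Tfap2a+/- library above wild type and 4.32% with every one below. Pdgfra, the receptor through which platelet-derived growth factor keeps precursors dividing, had 62.9, 67.3 and 50.8 CPM in Tfap2a+/- libraries, 68.8, 67.0 and 69.9 CPM in those labelled Tfap2b+/- and 61.5, 75.4 and 60.2 CPM in wild-type libraries. Tfap2a+/- library 3 was the lowest of all and wild-type library 2 the highest, with the rest between, giving a log2 fold change of -0.12 (SE 0.12, edgeR adjusted p = 0.999). Cspg4, the membrane proteoglycan that defines precursors in tissue sections and is also made by pericytes, had 26.3, 22.5 and 19.6 CPM in Tfap2a+/- libraries, 28.1, 31.1 and 25.7 CPM in those labelled Tfap2b+/- and 20.4, 31.2 and 23.1 CPM in wild-type libraries. These values followed the same order at the extremes, and the Tfap2a+/- mean differed from wild type by a log2 fold change of -0.12 (SE 0.17, edgeR adjusted p = 0.999).

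Olig1 and Olig2 encode basic helix-loop-helix factors that specify the lineage and remain on in mature oligodendrocytes. Olig1 had 92.4, 85.3 and 59.5 CPM in Tfap2a+/- libraries, 119, 107 and 64.6 CPM in those labelled Tfap2b+/- and 90.0, 96.4 and 94.6 CPM in wild-type libraries. Olig2 had 31.1, 24.4 and 19.5 CPM in Tfap2a+/- libraries, 33.7, 30.2 and 17.7 CPM in those labelled Tfap2b+/- and 25.7, 32.1 and 27.8 CPM in wild-type libraries. In both genes library 3 of each heterozygous group was lowest, below every wild-type library, while the other heterozygous libraries lay near or above wild type. For Olig1 the Tfap2a+/- comparison gave a log2 fold change of -0.24 (SE 0.23, edgeR adjusted p = 0.999), and for Olig2 it gave a log2 fold change of -0.19 (SE 0.24, edgeR adjusted p = 0.999). Per kilobase of exon Olig1 was the most abundant precursor gene, at a mean of 41.6 CPM per kilobase over the 9 libraries, and Olig2 stood at 10.6.

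In the libraries labelled Tfap2b+/- the precursor genes with the largest fitted differences from wild type were C1ql1 and Vcan, and neither was called. Of the 7 precursor genes 5 averaged higher and 2 lower than in wild type. Vcan encodes versican, a large chondroitin sulphate proteoglycan of the extracellular matrix, and had 28.4, 23.0 and 15.0 CPM in Tfap2a+/- libraries, 25.4, 22.4 and 30.5 CPM in those labelled Tfap2b+/- and 19.0, 20.7 and 20.0 CPM in wild-type libraries. All 3 libraries labelled Tfap2b+/- were above all wild-type libraries, the only lineage gene of 34 for which this held, beside 8.84% of all genes, and no lineage gene had all of them below, beside 7.63%. For Vcan those libraries gave a log2 fold change of 0.39 (SE 0.21, edgeR adjusted p = 0.525) against wild type. C1ql1, a secreted C1q-like protein of precursors that some hindbrain neurons also make, had 7.50, 6.64 and 5.34 CPM in Tfap2a+/- libraries, 9.11, 6.84 and 10.6 CPM in those labelled Tfap2b+/- and 5.45, 5.91 and 6.87 CPM in wild-type libraries. The libraries labelled Tfap2b+/- overlapped wild type by a narrow margin, with a log2 fold change of 0.54 (SE 0.20, edgeR adjusted p = 0.431) and a 95% interval of 0.09 to 0.99. Per kilobase Vcan was the least abundant precursor gene, at 1.57 CPM per kilobase. Sox6, a transcription factor that holds precursors in their undifferentiated state and is also made by cortical interneurons, had 37.1, 33.6 and 33.1 CPM in Tfap2a+/- libraries, 38.1, 33.1 and 31.8 CPM in those labelled Tfap2b+/- and 38.8, 31.3 and 34.9 CPM in wild-type libraries. It was the steadiest lineage gene, with a 1.24-fold range over the 9 libraries.

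Cspg4 and the OLIG genes did not separate the libraries labelled Tfap2b+/- from wild type either. For Cspg4 those libraries gave a log2 fold change of 0.18 (SE 0.17, edgeR adjusted p = 0.691) against wild type. Pdgfra in those libraries was nearly constant, at 68.6 ± 1.46 CPM (SD, n = 3), beside 65.7 ± 8.40 CPM in wild type. The precursor median was 0.25 without library 3 of that group and 0.18 with wild-type library 2 left out. Leaving out Tfap2a+/- library 3 took that for Tfap2a+/- minus wild type to -0.01, and leaving out wild-type library 2 took it to -0.00423, so 1 library moved these small medians by more than 1.5 times.

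The 6 newly formed genes did not behave as 1 group. In Tfap2a+/- 3 averaged higher and 3 lower than wild type, and in the libraries labelled Tfap2b+/- 4 averaged higher and 2 lower. Their median for Tfap2a+/- minus wild type was -0.161 when wild-type library 1 was left out and 0.0514 when wild-type library 2 was. For the libraries labelled Tfap2b+/- it was -0.118 without library 1 of that group and 0.267 without wild-type library 2, so the sign of both medians depended on single libraries. Gpr17, a G protein-coupled receptor that is on for a short time in committed precursors and must be shut off for maturation to go on, had 65.2, 70.2 and 45.2 CPM in Tfap2a+/- libraries, 38.4, 37.5 and 44.6 CPM in those labelled Tfap2b+/- and 45.4, 43.4 and 56.5 CPM in wild-type libraries. The 2 highest values belonged to Tfap2a+/- libraries 1 and 2, and the libraries labelled Tfap2b+/- held the 2 lowest. Against wild type the Tfap2a+/- libraries overlapped, with a log2 fold change of 0.31 (SE 0.17, edgeR adjusted p = 0.999), and those labelled Tfap2b+/- overlapped as well, with a log2 fold change of -0.27 (SE 0.17, edgeR adjusted p = 0.567).

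Itpr2, an inositol trisphosphate receptor that releases calcium from the endoplasmic reticulum and is also abundant in astrocytes, had 34.7, 31.1 and 29.9 CPM in Tfap2a+/- libraries, 40.0, 42.8 and 30.9 CPM in those labelled Tfap2b+/- and 27.7, 28.0 and 32.1 CPM in wild-type libraries. In the libraries labelled Tfap2b+/- library 3 lay within the wild-type range and the other 2 above it, with a log2 fold change of 0.37 (SE 0.13, edgeR adjusted p = 0.429) and a 95% interval of 0.08 to 0.67. The Tfap2a+/- libraries gave a log2 fold change of 0.13 (SE 0.13, edgeR adjusted p = 0.999). Tmem2, a cell-surface protein that cuts hyaluronan and is named Cemip2 in the annotation, had 16.0, 13.6 and 17.7 CPM in Tfap2a+/- libraries, 17.5, 14.6 and 21.8 CPM in those labelled Tfap2b+/- and 14.3, 18.4 and 17.6 CPM in wild-type libraries. Its groups overlapped throughout, with a log2 fold change of 0.10 (SE 0.17, edgeR adjusted p = 0.842) for the libraries labelled Tfap2b+/-, which was -0.07 without library 3 of that group.

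Bcas1 and Enpp6 varied between libraries as the myelin genes did. Bcas1, a marker of oligodendrocytes that have just begun to make myelin, had 189, 155 and 95.2 CPM in Tfap2a+/- libraries, 299, 241 and 90.1 CPM in those labelled Tfap2b+/- and 157, 217 and 176 CPM in wild-type libraries. Enpp6, a choline phosphodiesterase switched on as oligodendrocytes form, had 12.2, 11.3 and 4.98 CPM in Tfap2a+/- libraries, 13.9, 13.5 and 7.84 CPM in those labelled Tfap2b+/- and 11.0, 18.3 and 8.15 CPM in wild-type libraries. Library 3 of each heterozygous group was lowest for both genes, and for Enpp6 wild-type library 3 came next, at less than the mean of any group. The Tfap2a+/- difference in Enpp6 was a log2 fold change of -0.39 (SE 0.40, edgeR adjusted p = 0.999), a value that leaving out library 2 of wild type took to -0.00156 and leaving out its library 3 took to -0.625. Bcas1 was the most abundant newly formed gene per kilobase, at 47.7 CPM per kilobase, and Tcf7l1, a transcription factor of the Wnt pathway, the least, at 1.23. Tcf7l1 had 5.27, 4.63 and 4.61 CPM in Tfap2a+/- libraries, 5.68, 4.42 and 4.56 CPM in those labelled Tfap2b+/- and 3.76, 6.02 and 4.63 CPM in wild-type libraries, and its groups overlapped in each comparison.

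**Figure D2:**
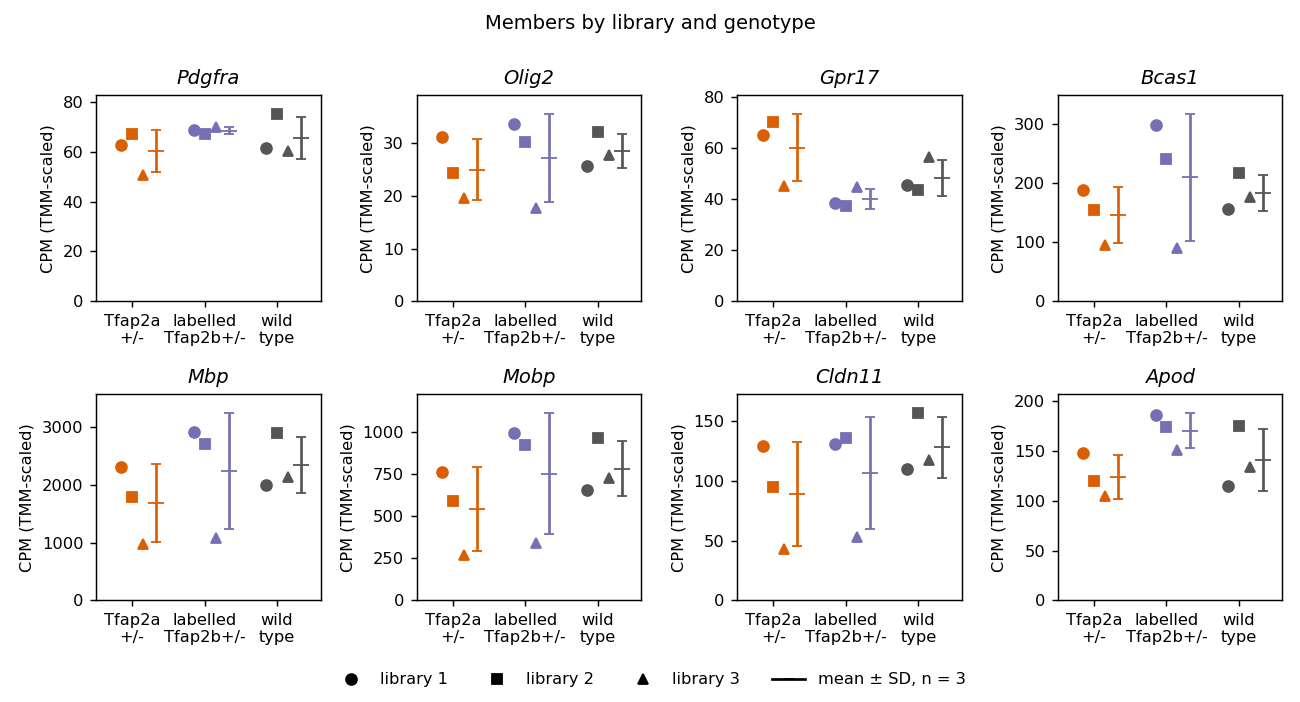
TMM-scaled CPM (y axis, from 0) of 8 lineage genes in each library, with 1 symbol per library number and the mean ± SD of each genotype beside it. Library 3 of Tfap2a+/- and of the libraries labelled Tfap2b+/- is lowest for Olig2, Bcas1, Mbp, Mobp and Cldn11 and not for Gpr17, and Apod of the libraries labelled Tfap2b+/- lies above all 3 Tfap2a+/- values.

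Mbp, the basic protein that compacts the inner faces of the myelin membrane, was the most abundant lineage gene per kilobase, at 247 CPM per kilobase. It had 2308, 1786 and 973 CPM in Tfap2a+/- libraries, 2920, 2718 and 1079 CPM in those labelled Tfap2b+/- and 2001, 2905 and 2142 CPM in wild-type libraries. Mean levels were 1689 ± 673 CPM in Tfap2a+/-, 2239 ± 1009 CPM in those labelled Tfap2b+/- and 2349 ± 486 CPM in wild-type libraries (SD, n = 3 each). Library 3 of each heterozygous group was lowest, and the other 7 libraries lay between 1786 and 2920 CPM. The Tfap2a+/- difference was a log2 fold change of -0.48 (SE 0.40, edgeR adjusted p = 0.999), and the libraries labelled Tfap2b+/- gave a log2 fold change of -0.07 (SE 0.40, edgeR adjusted p = 0.965).

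Mobp, a small basic protein of compact myelin whose promoter is printed above, had 763, 592 and 271 CPM in Tfap2a+/- libraries, 999, 925 and 339 CPM in those labelled Tfap2b+/- and 656, 968 and 729.8 CPM in wild-type libraries. It followed Mbp library by library, with a log2 fold change of -0.53 (SE 0.45, edgeR adjusted p = 0.999) for Tfap2a+/-. Cldn11, the claudin that forms the tight junctions between myelin layers, had 129, 94.8 and 42.6 CPM in Tfap2a+/- libraries, 131, 136 and 52.7 CPM in those labelled Tfap2b+/- and 109.7, 157 and 117 CPM in wild-type libraries. Mal, a proteolipid that sorts membrane rafts to myelin, had 244, 186 and 77.7 CPM in Tfap2a+/- libraries, 271, 264 and 97.9 CPM in those labelled Tfap2b+/- and 212, 289 and 245 CPM in wild-type libraries. In both genes Tfap2a+/- library 3 was the lowest and wild-type library 2 the highest of the 9. Mal had the largest difference of the 21 genes in Tfap2a+/-, with a log2 fold change of -0.55 (SE 0.45, edgeR adjusted p = 0.999), and Cldn11 had a log2 fold change of -0.53 (SE 0.43, edgeR adjusted p = 0.999).

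Aspa encodes the enzyme that splits N-acetylaspartate, a neuronal metabolite whose acetate feeds myelin lipid synthesis. It had 20.8, 14.7 and 8.06 CPM in Tfap2a+/- libraries, 33.7, 30.2 and 13.0 CPM in those labelled Tfap2b+/- and 18.3, 23.9 and 18.3 CPM in wild-type libraries. The 2 highest values came from libraries 1 and 2 labelled Tfap2b+/- and the lowest from Tfap2a+/- library 3, a 4.18-fold range over the 9 libraries that was the widest of any lineage gene. The Tfap2a+/- comparison gave a log2 fold change of -0.47 (SE 0.40, edgeR adjusted p = 0.999), and the libraries labelled Tfap2b+/- gave a log2 fold change of 0.35 (SE 0.39, edgeR adjusted p = 0.752).

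Apod and Gsn were the myelinating genes whose lowest pair was not library 3 of both heterozygous groups. Over the 9 libraries the Pearson r of log2 CPM with Mbp was 0.672 for Apod and 0.706 for Gsn. Without that pair of libraries it was 0.965 for Apod and 0.572 for Gsn. Apod, a secreted lipid carrier of mature oligodendrocytes that cells around vessels also make, had 148, 120.0 and 105 CPM in Tfap2a+/- libraries, 186, 175 and 151 CPM in those labelled Tfap2b+/- and 115, 175 and 134 CPM in wild-type libraries. The libraries labelled Tfap2b+/- ranged above wild-type libraries 1 and 3, library 3 of that group included, with a log2 fold change of 0.27 (SE 0.18, edgeR adjusted p = 0.578). Gsn, the actin-severing protein gelsolin, had 64.7, 50.3 and 40.1 CPM in Tfap2a+/- libraries, 53.4, 55.8 and 51.1 CPM in those labelled Tfap2b+/- and 51.7, 78.9 and 51.0 CPM in wild-type libraries. Wild-type library 2 was the highest, which is also the library with the most choroid plexus RNA, and the part of that RNA in the Gsn value was not tested. The log2 fold change of -0.18 (SE 0.20, edgeR adjusted p = 0.753) for the libraries labelled Tfap2b+/- was 0.07 without wild-type library 2.

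Trf, the iron carrier transferrin, had 5.61, 3.97 and 2.90 CPM in Tfap2a+/- libraries, 7.69, 7.04 and 2.26 CPM in those labelled Tfap2b+/- and 4.74, 6.93 and 5.64 CPM in wild-type libraries. On the same strand 2108 of its 3320 exon bases are shared with the annotated gene Gm20425, and STAR does not count reads that genes share, so its level is uncertain. At 1.57 CPM per kilobase it was the least abundant myelinating gene as counted. Its libraries still ranked much as those of Mobp did. The same rule removes reads from 79 exon bases of Mobp and 30 of Pdgfra.

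The other 13 myelinating genes repeated the pattern of Mbp. They were the adhesion proteins Mog, on the outer face of myelin, and Mag, on the face towards the axon, the phosphodiesterase Cnp of uncompacted myelin, the membrane protein Opalin, the cytoskeletal proteins Ermn and Anln, the connexin Gjc3 and the hyaluronan link protein Hapln2 of the node. Ugt8a and Fa2h make and hydroxylate the galactolipids of myelin, Qdpr regenerates tetrahydrobiopterin, Car2 is a carbonic anhydrase, and Myrf is the transcription factor that turns myelin genes on. Their log2 fold changes for Tfap2a+/- minus wild type were all negative, from -0.50 for Opalin to -0.20 for Car2. Those for the libraries labelled Tfap2b+/- minus wild type ran from -0.15 for Ermn to 0.20 for Hapln2. Mog had 48.8, 34.3 and 17.0 CPM in Tfap2a+/- libraries, 60.7, 57.6 and 22.7 CPM in those labelled Tfap2b+/- and 38.7, 61.1 and 41.6 CPM in wild-type libraries. Myrf had 83.8, 59.6 and 37.1 CPM in Tfap2a+/- libraries, 111, 100.1 and 36.9 CPM in those labelled Tfap2b+/- and 66.8, 102 and 79.9 CPM in wild-type libraries. Car2, which choroid plexus makes too, had 196, 156 and 139 CPM in Tfap2a+/- libraries, 222, 213 and 131 CPM in those labelled Tfap2b+/- and 161, 228 and 174 CPM in wild-type libraries, the smallest range of the myelinating genes at 1.75-fold. In each of these 13 genes the lowest 2 libraries were Tfap2a+/- library 3 and library 3 labelled Tfap2b+/-.

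Over all 21 myelinating genes, those same libraries were the lowest pair for 19, the exceptions being Apod and Gsn. The lowest pair was the same for 2 of the 7 precursor genes, Olig1 and Olig2, and for 2 of the 6 newly formed genes, Bcas1 and Enpp6. Set against the wild-type mean of each gene, the median ratio over the 21 myelinating genes was 1.04, 0.749 and 0.432 in Tfap2a+/- libraries 1, 2 and 3, 1.29, 1.21 and 0.481 in libraries 1, 2 and 3 labelled Tfap2b+/- and 0.852, 1.22 and 0.929 in wild-type libraries 1, 2 and 3. Thus Tfap2a+/- library 1 was at the wild-type level, library 2 below it and library 3 far below, and the libraries labelled Tfap2b+/- held both the highest and nearly the lowest values. For the 7 precursor genes the same ratios were 1.06, 0.959 and 0.773 in Tfap2a+/-, 1.18, 1.12 and 1.03 in the libraries labelled Tfap2b+/- and 0.936, 1.04 and 0.996 in wild type. The libraries with median myelinating ratios of 0.432 and 0.481 had median precursor ratios of 0.773 and 1.03. Single precursor genes ran from 0.635 to 0.945 in the former and from 0.62 to 1.74 in the latter. The median of 1.03 thus covers genes well below and well above wild type.

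**Figure D3:**
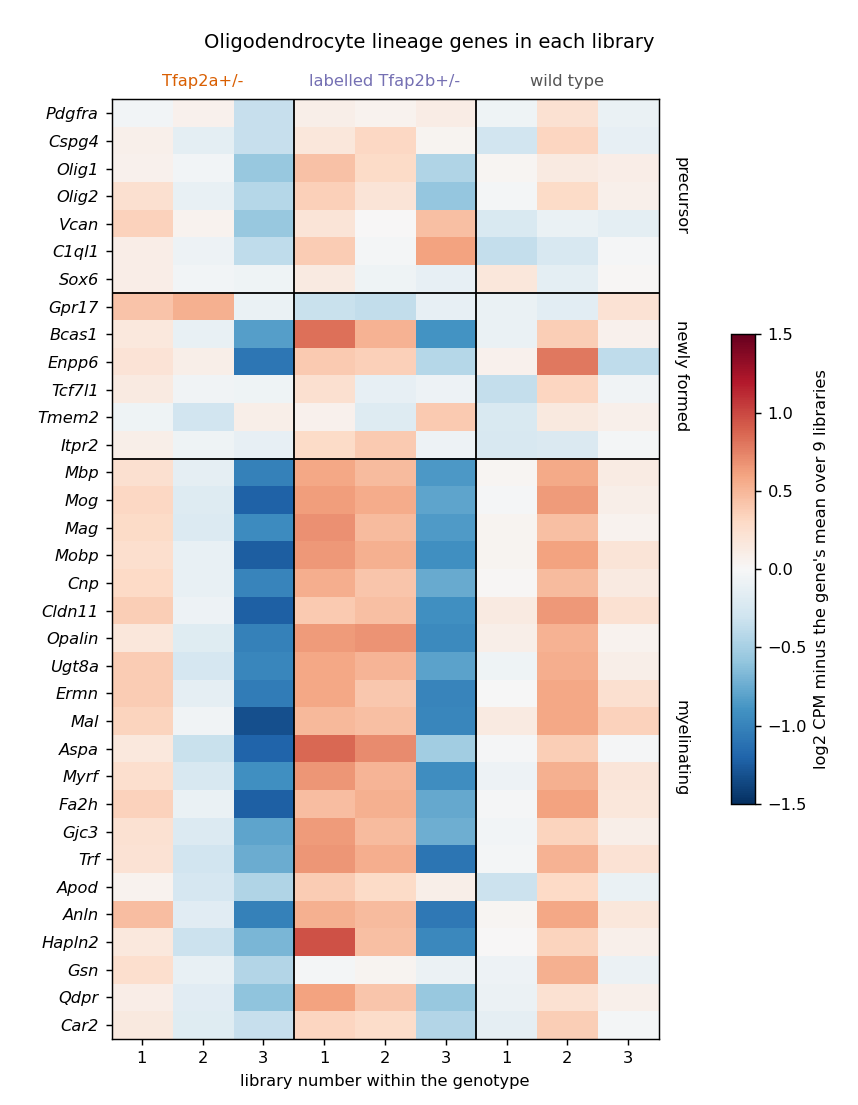
Log2 CPM of each lineage gene (rows, by stage) in each library (columns, by genotype) minus the mean of that gene over the 9 libraries, in log2 units on the colour bar. Nearly all myelinating rows are blue in library 3 of Tfap2a+/- and in library 3 labelled Tfap2b+/- and red in libraries 1 and 2 labelled Tfap2b+/- and in wild-type library 2, while most precursor rows stay pale.

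The spread within genotypes was accordingly widest for the myelinating genes. The median within-genotype SD of log2 CPM was 0.63 for the 21 myelinating genes, 0.25 for the 7 precursor genes, 0.24 for the 6 newly formed genes and 0.22 over all 17355 genes tested. The median fold range over the 9 libraries was 3.11 for myelinating, 1.90 for precursor and 1.74 for newly formed genes. Myelinating genes together took 0.208% to 0.675% of all counts in genes, newly formed genes 0.0191% to 0.0448% and precursor genes 0.0196% to 0.0349%. The median of the 21 genes for Tfap2a+/- minus wild type was -0.14 without Tfap2a+/- library 3, -0.77 without Tfap2a+/- library 1 and -0.26 without wild-type library 2. For the libraries labelled Tfap2b+/- minus wild type it was 0.32 without library 3, -0.24 without library 1, -0.19 without library 2 and 0.18 without wild-type library 2. The size of these medians, and for the libraries labelled Tfap2b+/- also the sign, thus depended on single libraries.

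Myelinating genes were high and low in the same libraries. The median Pearson r of log2 CPM over their 210 pairs was 0.961 over the 9 libraries (range 0.493 to 0.998) and 0.943 when the 2 libraries farthest from the median of Mbp were left out. Both genes of a pair are read in the same libraries and share the depth, scaling and tissue piece of each. Genes are not independent replicates. The 21 precursor pairs had a median r of 0.408 and the 15 newly formed pairs of -0.0408. With Mbp, the r was 0.967 for Olig1, 0.971 for Olig2, 0.968 for Bcas1 and 0.887 for Enpp6, against 0.665 for Cspg4, 0.554 for Pdgfra, 0.331 for Sox6, 0.196 for Vcan, -0.0253 for C1ql1, -0.132 for Gpr17 and -0.36 for Tmem2. Without the same pair of libraries the r with Mbp was 0.824 for Olig1, 0.938 for Olig2, 0.911 for Bcas1 and 0.711 for Enpp6, against 0.893 for Cspg4, 0.616 for Pdgfra, -0.211 for Sox6, 0.216 for Vcan, 0.386 for C1ql1, -0.762 for Gpr17 and 0.659 for Tmem2. The order of Olig1 and Cspg4 was then turned round, and the low values of C1ql1 and Tmem2 rested on those libraries.

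Among 6 relations between genes that were tested over the 9 libraries with exact permutations, those within the myelinating stage were the closest. Mbp and Mobp had r = 0.997 (two-sided exact permutation p = 2.76e-06, the smallest that the pairings allow, adjusted p = 1.65e-05 over the 6) and a Spearman rho of 1 (exact p = 5.51e-06, adjusted p = 3.31e-05). Without Tfap2a+/- library 3 and library 3 labelled Tfap2b+/-, r was again 0.997, and it was 0.997 within genotypes. Mobp and Trf had r = 0.954 (exact p = 0.000215, adjusted p = 0.000645) and rho = 0.95 (exact p = 0.000353, adjusted p = 0.00106), with r = 0.985 without the same pair of libraries and 0.949 within genotypes. Both values of r were thus much the same within genotypes, where they were not tested and still include library 3 of each group. These genes were chosen by name as myelin genes, with earlier results of these data known. Small p-values were therefore likely from the start.

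No relation of Mbp with Pdgfra or Gpr17 passed this test. Mbp and Pdgfra had r = 0.554 (exact permutation p = 0.125, adjusted p = 0.188) and rho = 0.433 (exact p = 0.25, adjusted p = 0.291), with r = 0.616 without the 2 libraries farthest on Mbp and 0.5 within genotypes. Mbp and Gpr17 had r = -0.132 (exact permutation p = 0.751, adjusted p = 0.751) and rho = -0.483 (exact p = 0.194, adjusted p = 0.291), with r = -0.762 without those libraries (exact p = 0.0625, adjusted p = 0.125) and 0.136 within genotypes. Gpr17 and Enpp6, both of the newly formed stage, had r = -0.126 (exact permutation p = 0.749, adjusted p = 0.751) and rho = -0.4 (exact p = 0.291, adjusted p = 0.291), with r = -0.485 without Tfap2a+/- libraries 1 and 2, which stood farthest on Gpr17, and 0.161 within genotypes. Pdgfra and Cspg4, both precursor surface proteins, had r = 0.78 (exact permutation p = 0.00853, adjusted p = 0.0171) and rho = 0.7 (exact p = 0.0433, adjusted p = 0.0865), with 0.711 within genotypes. That relation rests on the 2 libraries farthest on Pdgfra, since r was 0.546 without Tfap2a+/- library 3 and wild-type library 2 (exact p = 0.198, adjusted p = 0.238).

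**Figure D4:**
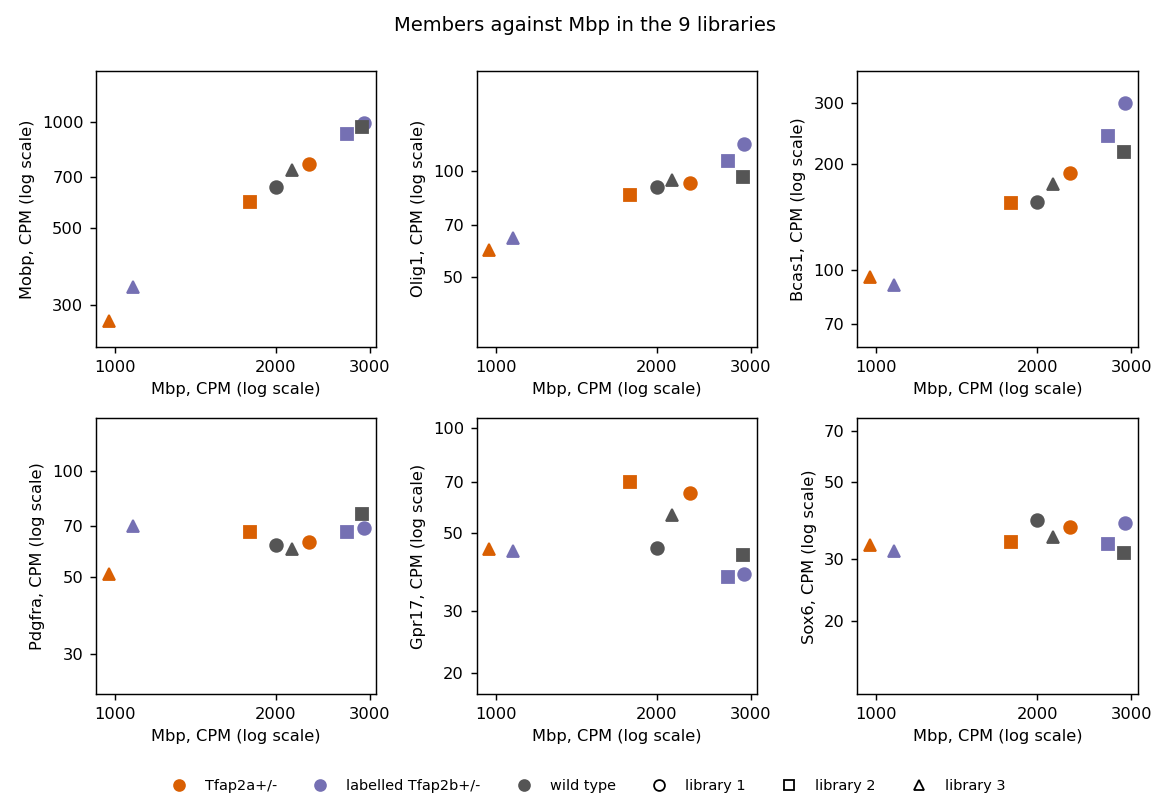
TMM-scaled CPM of 6 lineage genes (y axes, log scale) against Mbp (x axis, log scale) in the 9 libraries, coloured by genotype with 1 symbol per library number. Mobp, Olig1 and Bcas1 climb with Mbp, with library 3 of Tfap2a+/- and library 3 labelled Tfap2b+/- at the lower left, while Pdgfra, Gpr17 and Sox6 do not line up with it.

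Compared directly, Tfap2a+/- libraries had lower means than those labelled Tfap2b+/- in 32 of the 34 genes, with no gene called. The medians were -0.23 for precursor, -0.22 for newly formed and -0.43 for myelinating genes, beside -0.01 over all genes tested. Gpr17 and Sox6 were the 2 that averaged higher. For Gpr17 every Tfap2a+/- library was above every library labelled Tfap2b+/-, beside 8.03% of all genes for which that held, with a log2 fold change of 0.59 (SE 0.17, edgeR adjusted p = 0.363). Apod was the only gene with every Tfap2a+/- library below every one labelled Tfap2b+/-, beside 9.2% of all genes, with a log2 fold change of -0.46 (SE 0.18, edgeR adjusted p = 0.400). Aspa had the largest fitted difference of the 34, with overlapping libraries and a log2 fold change of -0.82 (SE 0.40, edgeR adjusted p = 0.464). The myelinating median was -0.15 without Tfap2a+/- library 3, -0.72 without Tfap2a+/- library 1 and -0.72 without library 3 labelled Tfap2b+/-.

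Further genes of the lineage were listed apart from the 34. Of 34 further myelinating genes 4 averaged higher and 30 lower in Tfap2a+/- than in wild type, with a median log2 fold change of -0.34, and 22 averaged higher and 12 lower in the libraries labelled Tfap2b+/-, with a median of 0.06. Over all genes tested, 51.8% averaged lower in Tfap2a+/- and 50.3% in the libraries labelled Tfap2b+/-. Tubb4a, a tubulin abundant in oligodendrocytes and neurons, had 633, 650.3 and 633 CPM in Tfap2a+/- libraries against 739, 787 and 667 CPM in wild type, a log2 fold change of -0.19 (SE 0.10, edgeR adjusted p = 0.999). It was not called, although every Tfap2a+/- library was below wild type, as for 4.32% of all genes.

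Within the same list, the genes furthest from wild type in the libraries labelled Tfap2b+/- are made by other cells too. Ptgds, a prostaglandin synthase of oligodendrocytes and of the meninges, had 784, 613 and 985 CPM in libraries labelled Tfap2b+/- against 491, 331 and 633 CPM in wild type, a log2 fold change of 0.71 (SE 0.27, edgeR adjusted p = 0.447). Enpp2, the enzyme autotaxin, which choroid plexus makes in large amounts, had 282, 407 and 199.5 CPM in libraries labelled Tfap2b+/- against 289, 1828 and 262 CPM in wild type, a log2 fold change of -1.42 (SE 0.74, edgeR adjusted p = 0.517). The summed level of 10 meningeal fibroblast markers was 111 to 157 CPM in Tfap2a+/-, 121 to 226 CPM in those labelled Tfap2b+/- and 95.2 to 134 CPM in wild-type libraries, highest in library 3 labelled Tfap2b+/-, which also had the most Ptgds. Wild-type library 2 had both the most Enpp2 and the most choroid plexus RNA. The part of these cells in either gene was not tested.

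Of 18 further precursor genes 7 averaged higher and 11 lower in Tfap2a+/- than in wild type, with a median of -0.07, and 8 higher and 10 lower in the libraries labelled Tfap2b+/-, with a median of -0.02. Cacng4, a regulator of AMPA receptors that precursors make and striatal neurons make too, had 74.5, 66.3 and 32.0 CPM in Tfap2a+/- libraries against 35.7, 57.6 and 32.3 CPM in wild type, a log2 fold change of 0.46 (SE 0.31, edgeR adjusted p = 0.999). Sox8, a SOX factor of the lineage, had 49.5, 37.2 and 26.2 CPM in Tfap2a+/- libraries against 41.6, 48.8 and 47.2 CPM in wild type, a log2 fold change of -0.28 (SE 0.20, edgeR adjusted p = 0.999). Both overlapped wild type. In the libraries labelled Tfap2b+/- Ccnd1, a cyclin that drives cells into the cycle and is also made by neurons, had 27.9, 42.3 and 42.3 CPM in libraries labelled Tfap2b+/- against 60.0, 80.3 and 52.3 CPM in wild type, a log2 fold change of -0.78 (SE 0.20, edgeR adjusted p = 0.320). Ptprz1, a receptor phosphatase of precursors and astrocytes, had 402, 350.2 and 324 CPM in libraries labelled Tfap2b+/- against 257, 316 and 283 CPM in wild type, a log2 fold change of 0.33 (SE 0.11, edgeR adjusted p = 0.413). The groups did not overlap for Ccnd1, which was below wild type throughout, or for Ptprz1, which was above it. Of all genes, 7.63% were below in this way and 8.84% above, and neither gene was called.

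Of 16 further newly formed genes 15 passed the filter, with 5 averaging higher and 10 lower in Tfap2a+/- than in wild type and 7 higher and 8 lower in the libraries labelled Tfap2b+/-. Epb41l2, a protein that ties membrane proteins to the cytoskeleton, had 116, 118 and 133 CPM in Tfap2a+/- libraries against 100.3, 107 and 98.3 CPM in wild type, a log2 fold change of 0.27 (SE 0.09, edgeR adjusted p = 0.999). Frmd4a, a scaffold protein of cell polarity, had 63.2, 66.6 and 61.0 CPM in libraries labelled Tfap2b+/- against 53.9, 57.4 and 56.5 CPM in wild type, a log2 fold change of 0.19 (SE 0.06, edgeR adjusted p = 0.429). In each of them the heterozygous libraries were above all wild-type libraries by small margins. That held for 4.85% of all genes in Tfap2a+/- and for 8.84% in the libraries labelled Tfap2b+/-. Casr, the calcium-sensing receptor, had 0.377, 0.178 and 0.138 CPM in Tfap2a+/- libraries against 0.188, 1.73 and 0.463 CPM in wild type, a log2 fold change of -1.74 (SE 0.86, edgeR adjusted p = 0.999), with the highest value in wild-type library 2 and Tfap2a+/- values near the level of 3 counts. Tmem163, a zinc transporter, had 29.0, 20.6 and 13.4 CPM in libraries labelled Tfap2b+/- against 11.9, 17.6 and 14.3 CPM in wild type, a log2 fold change of 0.52 (SE 0.26, edgeR adjusted p = 0.501).

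Signals that act on precursors and on myelination were measured as 26 genes, of which 25 passed the filter. In Tfap2a+/- 6 averaged higher and 19 lower than in wild type, and in the libraries labelled Tfap2b+/- 9 averaged higher and 16 lower. Rxrg, the retinoid X receptor that promotes remyelination and is also abundant in striatal neurons, had 35.4, 32.2 and 11.5 CPM in Tfap2a+/- libraries against 1.64, 8.51 and 3.17 CPM in wild type, a log2 fold change of 2.56 (SE 0.70, edgeR adjusted p = 0.999). All Tfap2a+/- libraries were above wild type, as for 4.85% of all genes. The summed level of 10 striatal markers was 883 to 2632 CPM in Tfap2a+/-, 363 to 755 CPM in those labelled Tfap2b+/- and 363 to 972 CPM in wild-type libraries, ranking the Tfap2a+/- libraries as Rxrg did. The part of striatal tissue in the Rxrg value was not tested. Hes1, a repressor downstream of Notch that holds back differentiation, had 8.28, 6.77 and 8.34 CPM in Tfap2a+/- libraries against 9.35, 12.8 and 8.88 CPM in wild type, a log2 fold change of -0.41 (SE 0.17, edgeR adjusted p = 0.999).

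In the libraries labelled Tfap2b+/-, Bdnf, a neuronal growth factor that acts on the lineage through its receptor Ntrk2, had 14.3, 23.4 and 18.3 CPM in libraries labelled Tfap2b+/- against 23.8, 45.8 and 44.9 CPM in wild type, a log2 fold change of -1.03 (SE 0.28, edgeR adjusted p = 0.350). Lif, a cytokine that favours oligodendrocyte survival, had 0.353, 0.303 and 0.415 CPM in libraries labelled Tfap2b+/- against 0.470, 1.84 and 0.657 CPM in wild type, a log2 fold change of -1.48 (SE 0.55, edgeR adjusted p = 0.441). Both were below wild type in every library, as were 7.63% of all genes, and neither was called. The highest wild-type value of each came from library 2.

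Myelin also draws on lipid synthesis and on partner proteins of the axon. Of 24 genes of cholesterol and sphingolipid synthesis 3 averaged higher and 21 lower in Tfap2a+/- than in wild type, with a median of -0.07, and 12 averaged higher and 12 lower in the libraries labelled Tfap2b+/-. Fdft1, which makes squalene, had 64.4, 79.7 and 63.9 CPM in Tfap2a+/- libraries against 92.7, 76.9 and 75.9 CPM in wild type, a log2 fold change of -0.24 (SE 0.11, edgeR adjusted p = 0.999). Sqle, which oxidises squalene, had 60.7, 63.8 and 55.3 CPM in Tfap2a+/- libraries against 72.6, 70.8 and 58.5 CPM in wild type, a log2 fold change of -0.17 (SE 0.10, edgeR adjusted p = 0.999). Both overlapped wild type. Srebf2, the transcription factor that drives cholesterol synthesis, had 218, 245 and 234 CPM in libraries labelled Tfap2b+/- against 292, 257 and 269.6 CPM in wild type, a log2 fold change of -0.23 (SE 0.09, edgeR adjusted p = 0.434). Sptlc2, a subunit of the enzyme that starts sphingolipid synthesis, had 42.2, 48.2 and 36.5 CPM in libraries labelled Tfap2b+/- against 33.9, 40.0 and 34.1 CPM in wild type, a log2 fold change of 0.23 (SE 0.11, edgeR adjusted p = 0.501). Every library labelled Tfap2b+/- was below wild type for Srebf2, as for 7.63% of all genes. Srebf2 was not called, and Sptlc2 overlapped.

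Of 15 axonal partners of the node and internode 9 averaged higher and 6 lower in Tfap2a+/-, and the same counts were found in the libraries labelled Tfap2b+/-. Cntn1, an axonal adhesion protein beside the node, had 471, 501 and 474 CPM in Tfap2a+/- libraries against 514, 535 and 504 CPM in wild type, a log2 fold change of -0.10 (SE 0.07, edgeR adjusted p = 0.999). Nefl, the light neurofilament, had 406, 475 and 585 CPM in Tfap2a+/- libraries against 548, 586 and 613 CPM in wild type, a log2 fold change of -0.25 (SE 0.19, edgeR adjusted p = 0.999). Cntnap2, which clusters potassium channels beside the node, had 262, 211 and 189 CPM in libraries labelled Tfap2b+/- against 150.2, 202 and 195 CPM in wild type, a log2 fold change of 0.27 (SE 0.15, edgeR adjusted p = 0.525). Epb41l3, which anchors axonal adhesion proteins, had 364, 289.8 and 216 CPM in libraries labelled Tfap2b+/- against 239.6, 198 and 258 CPM in wild type, a log2 fold change of 0.32 (SE 0.18, edgeR adjusted p = 0.536). The groups overlapped for each of these but Cntn1, which was below wild type in every Tfap2a+/- library, as were 4.32% of all genes.

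Markers of other cells and regions also differed between libraries. The mean log2 deviation of the 21 myelinating genes from their means was 0.26, -0.18 and -0.92 in Tfap2a+/- libraries 1, 2 and 3, 0.56, 0.46 and -0.76 in libraries 1, 2 and 3 labelled Tfap2b+/- and -0.02, 0.49 and 0.11 in wild-type libraries 1, 2 and 3. The summed level of 8 ependymal markers was 47.2, 16.4 and 8.20 CPM in Tfap2a+/-, 45.2, 28.5 and 15.5 CPM in those labelled Tfap2b+/- and 34.4, 70.7 and 24.9 CPM in wild-type libraries. Ependymal levels were thus lowest in the libraries with the least myelin RNA, where Ccdc153 was listed at 0 in Tfap2a+/- library 3 and Tmem212 at 0 in library 3 labelled Tfap2b+/-.

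The summed level of 10 mural cell markers was 275, 303 and 333 CPM in Tfap2a+/-, 299, 299 and 334 CPM in those labelled Tfap2b+/- and 254, 270 and 253 CPM in wild-type libraries, highest in the 2 libraries with the least myelin RNA. All 10 averaged higher than wild type in Tfap2a+/-, with a median log2 fold change of 0.258, and in the libraries labelled Tfap2b+/-, with a median of 0.365, and none was called. Summed, 12 microglial markers came to 448, 574 and 427 CPM in Tfap2a+/-, 304, 422 and 432 CPM in those labelled Tfap2b+/- and 474, 467 and 411 CPM in wild-type libraries. Of these 12, 10 averaged higher and 2 lower in Tfap2a+/- than in wild type (median 0.0882) and 12 averaged lower in the libraries labelled Tfap2b+/- (median -0.235), with none called. Library 1 labelled Tfap2b+/-, which had the most myelin RNA, had the least microglial RNA. Astrocyte markers, 12 in all, summed to 6155 to 7448 CPM in Tfap2a+/-, 5692 to 6485 CPM in those labelled Tfap2b+/- and 6316 to 6856 CPM in wild-type libraries. Most of each sum came from Slc1a2, at 2937 to 5080 CPM, so the sums mainly describe that gene. Gene by gene, 6 averaged higher and 6 lower in Tfap2a+/- than in wild type (median -0.00775). In the libraries labelled Tfap2b+/- 7 averaged higher and 5 lower (median 0.0993), with none called. For 10 endothelial markers the sums were 311 to 326 CPM in Tfap2a+/-, 314 to 338 CPM in those labelled Tfap2b+/- and 276 to 316 CPM in wild-type libraries.

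The summed level of 8 thalamic markers was 334, 274 and 421 CPM in Tfap2a+/-, 939, 1269 and 282 CPM in those labelled Tfap2b+/- and 456, 460 and 429 CPM in wild-type libraries. It was highest in libraries 1 and 2 labelled Tfap2b+/-, which also held high myelin levels. The summed level of 10 neuronal markers was 7644, 9150 and 10340 CPM in Tfap2a+/-, 6512, 8293 and 8730 CPM in those labelled Tfap2b+/- and 10121, 9040 and 8942 CPM in wild-type libraries. Library 1 labelled Tfap2b+/-, which had the most myelin RNA, had the least neuronal RNA. It also had the most of a hindbrain list, 47.5 CPM against at most 3.58 CPM elsewhere. Of the 10 genes of that list only 2 passed the filter on low counts, so its level rests on few genes. The part of these cells and regions in the myelin values was not tested. Left out together, a choice made after seeing the data, the 3 libraries with the highest choroid plexus or hindbrain levels (Tfap2a+/- library 1, library 1 labelled Tfap2b+/- and wild-type library 2) changed the myelinating median for Tfap2a+/- minus wild type to -0.59 and that for the libraries labelled Tfap2b+/- minus wild type to -0.08.

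**Figure D5:**
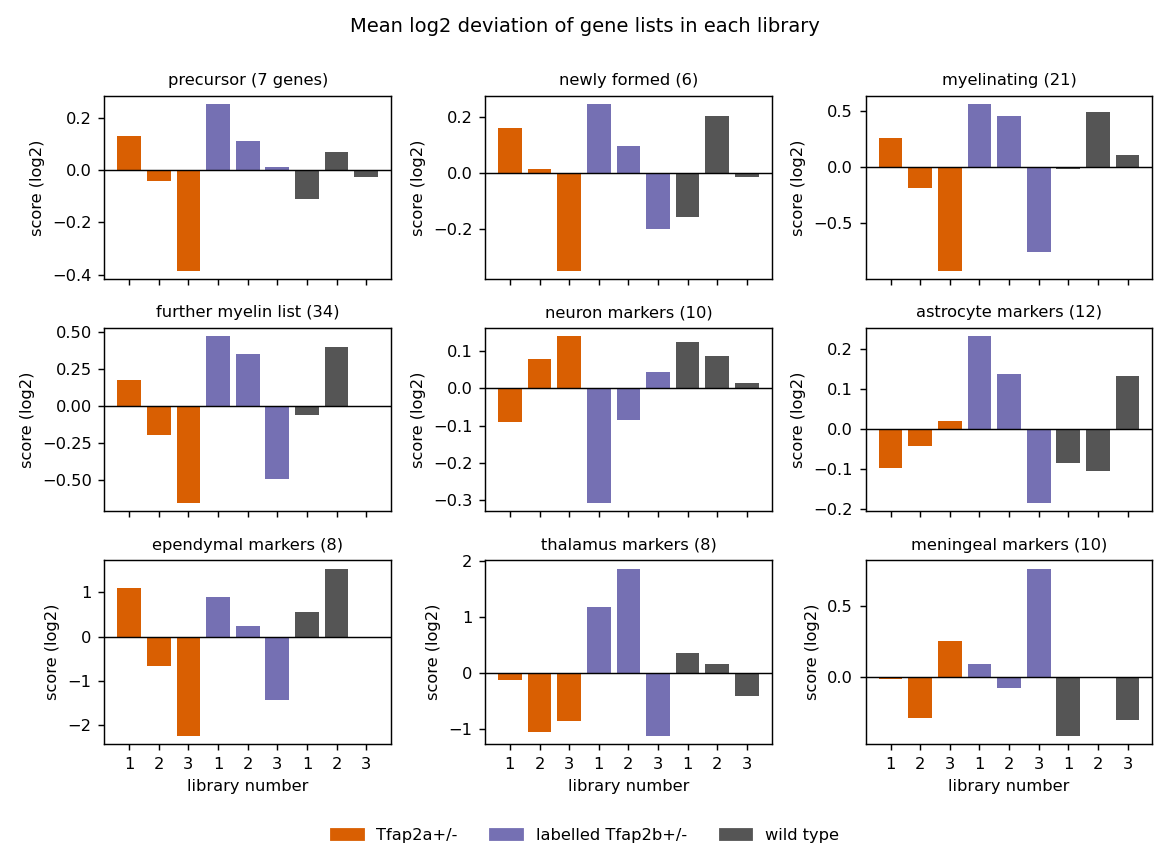
Mean log2 deviation from the 9-library mean (y axis, bars from 0, scale differs between panels) of the 3 lineage stages, the further myelinating genes and 5 marker lists in each library, coloured by genotype. Ependymal bars are lowest in Tfap2a+/- library 3 and library 3 labelled Tfap2b+/-, as the myelinating bars are, and thalamic bars are highest in libraries 1 and 2 labelled Tfap2b+/-.

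Genes outside the 34 whose log2 CPM followed the mean of the 21 myelinating genes most closely over the 9 libraries included Ttyh2 (r = 0.998), Tmem63a (0.997), Prr18 (0.996) and Gpr37 (0.991). For the newly formed mean the nearest genes were Tcp11 (0.973), Gab1 (0.973), Tm7sf3 (0.972), Col25a1 (0.969) and Frmd4b (0.968). For the precursor mean they were Gm33594 (0.973), Chd7 (0.966), Mgst1 (0.959), Ptpdc1 (0.959) and Elp4 (0.958). Tcp11 had 0.0921 CPM in Tfap2a+/- library 3 and 0.151 CPM in library 3 labelled Tfap2b+/-, where 3 counts are 0.138 and 0.113 CPM. Gm33594 had 0.184 CPM in the former, so both r rest partly on a few counts. Gab1 was lowest in the same libraries, as most myelinating genes were. The newly formed mean is also that of genes with a median pair r of -0.0408. Chd7, a chromatin remodeller, had 25.1, 18.1 and 12.5 CPM in Tfap2a+/- libraries, 31.8, 27.3 and 21.7 CPM in those labelled Tfap2b+/- and 16.6, 22.2 and 22.8 CPM in wild-type libraries. Such lists over 9 libraries rank likeness only and name no shared control.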

How the data were processed

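The authors deposited a table of raw gene counts for each library, made by STAR, as its column layout shows. Per the submitters' processing notes, the tools were cutadapt 2.4, STAR 2.6.1d and edgeR and the build GRCm38.p6, and the sources used here do not give the annotation release. Per the labels' protocols, dUTP in the second strand kept the strand, and pairs of 75 bases were read, so reverse-strand counts were used. They held 98.1% to 99.6% of the counts of lineage genes on both strands. The 4 rows without a gene were left out. Reads that STAR listed as on no annotated feature were 8.07% to 8.96% of a library in Tfap2a+/-. They were 11.1% to 11.8% in the libraries labelled Tfap2b+/- and 7.30% to 8.86% in wild type. This share was thus higher in every library labelled Tfap2b+/- than in any other. Its part in the comparisons was not tested. GENCODE M21 held 54409 of the 54446 gene identifiers. Of the 34 lineage genes 33 matched by symbol and Tmem2 by a RefSeq synonym.

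After filterByExpr (17355 genes left) and TMM scaling, edgeR 4.0.16 in R 4.3.3 fitted genotype alone to all 9 libraries, with its quasi-likelihood F-test. P-values were adjusted over every gene tested (Benjamini-Hochberg), and an adjusted p under 0.05 was called. Log2 CPM has a prior count of 2, and floors cover counting error only. Libraries of 1 genotype differed by more than sampling noise (chi-square per degree of freedom 20.6 or more). Values per library are given for up to 3 lineage genes of smallest p per stage and comparison with wild type, for genes in the 6 relations and for the most and least abundant per kilobase. Sox6, Mog, Myrf and Car2 were added after their values were seen. Each wider list gave its 2 genes of smallest p per comparison with wild type, and each stage the 5 genes nearest to its mean. Choosing by p favours genes whose groups do not overlap. Some genes that these rules name are not reported here. The lineage genes and all lists were chosen with earlier results of these data known. Alternatives were DESeq2 1.42.0, other scalings and filters, unstranded counts, a replicate block, only the groups compared, a robust fit and each library left out. The fit was tested on simulated data.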

Additional observations from a re-analysis of the deposited data

How the results depend on the processing

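No lineage gene was called in any of the 3 comparisons under any of the 60 combinations of comparison and alternative, DESeq2 and the replicate block included. Genes called outside the lineage depended more on the method. DESeq2 called 30 for Tfap2a+/- minus wild type, 175 for the libraries labelled Tfap2b+/- minus wild type and 221 for Tfap2a+/- minus those labelled Tfap2b+/-, where edgeR called 0. Without a filter on low counts edgeR called 2 in the first and 7 in the third. With each library left out in turn it called 0 to 3, 0 to 4 and 0 to 31. Leaving out the 3 libraries with the highest choroid plexus or hindbrain levels, an alternative added after seeing the data, gave 2 calls in the second comparison and 1 in the third. It also took the precursor median of the second to 0.179 and the log2 fold change of Gsn there to 0.0664.

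With each library left out in turn, the medians for Tfap2a+/- minus wild type ran from -0.178 to -0.00423 for precursor, from -0.161 to 0.0514 for newly formed and from -0.771 to -0.14 for myelinating genes. For the libraries labelled Tfap2b+/- minus wild type they ran from 0.0507 to 0.246 for precursor, from -0.118 to 0.267 for newly formed and from -0.235 to 0.323 for myelinating genes, and the single genes Tmem2 from -0.0661 to 0.226 and Gsn from -0.292 to 0.0663. For Tfap2a+/- minus those labelled Tfap2b+/- they ran from -0.425 to -0.0683 for precursor and from -0.718 to -0.146 for myelinating genes. Of the stage medians under all alternatives, 166 moved by less than 1 SD of the wild-type libraries and 14 by more, and of the fold changes of the named lineage genes 396 kept their sign and side of the threshold and 4 changed sign. These tallies include fits that left out a library of the group not compared, which could change little. A median near 0 could change sign within 1 SD. As no lineage gene was called at first, the side of the threshold could change only by a new call. The relation of Pdgfra and Cspg4 lost its call with r = 0.546 when the farthest pair of libraries was left out, and the other 11 checks of relations were unchanged in sign and call. The cause of these shifts was not tested.

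Over all genes, same-numbered libraries deviated together with r between -0.352 and 0.337 and others with -0.394 to 0.37. By this measure 0 libraries correlated best with their own number in both other genotypes. With 3 libraries per genotype this does not tell whether the numbers mark a shared litter, day or batch. In 19 of the 21 myelinating genes the lowest pair was library 3 of both heterozygous groups. With the number as a replicate block the myelinating medians were -0.55, -0.162 and -0.382 in the 3 comparisons, beside -0.445, -0.00548 and -0.428 without it. No call changed. With 3 libraries per genotype, the wide 95% intervals of the myelinating genes limit what could be detected, not their counts, which were 60 or more in each library.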
